A study of Platycodon grandiflorus with 6 samples.

Results

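Histones and the proteins that copy DNA were followed in the transcriptome of *Platycodon grandiflorus* (balloon flower) as 371 unigenes of 152777 in all. A unigene is a sequence assembled from the reads, not a locus in a genome, and the members were taken by the name of their best SwissProt match. The names were histone H1, H2A, H2B, H3 and H4, DNA replication licensing factor (MCM), proliferating cell nuclear antigen (PCNA), replication factor C (RFC), ribonucleoside-diphosphate reductase (RNR) and DNA polymerase. Another 12 unigenes with these names were left out because their match in the NR protein database was to peanut (*Arachis*). The members were 102 histones, 10 MCM, 62 PCNA and RFC, 24 replicative DNA polymerases (alpha, delta and epsilon), 29 RNR, 45 other DNA polymerases and 99 named "RNA-directed DNA polymerase homolog". The last name belongs to reverse transcriptases and entered only because it contains the words DNA polymerase, so results are also given for the other 272 members. Of the SwissProt matches, 132 were to *Arabidopsis thaliana*, and 26 species were matched in all.

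Callus (3 libraries) was compared with leaves (3 libraries). The callus was induced from stem pieces carrying nodes, on MS medium with the auxin NAA at 1.0 mg/L and the cytokinin 6-BA at 0.5 mg/L. It grew for 50 d at 25 °C under 12 h of light a day. Leaves came from the original plant, so the tissues differ in organ of origin and in growth conditions as well as in being callus. No genotype or cultivar is stated. The methods call the libraries of a tissue independent biological replicates, without saying from how many plants or cultures they came. The messenger RNA was selected with oligo(dT) beads.

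Histones H2A, H2B, H3 and H4 form the protein core around which DNA is wound, and H1 binds the DNA between cores. Dividing cells make new histones and new DNA in the same S phase. The MCM2 to MCM7 ring unwinds DNA at the fork, RFC loads the PCNA ring, PCNA holds the polymerases on the template, and RNR makes the deoxynucleotides that the polymerases use. In plants, as in animals, H3.2 belongs to the H3 forms deposited mainly during replication, while H3.3 is also deposited outside it. Callus is known as a proliferating tissue, whereas cells of a mature leaf have mostly stopped dividing.

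The libraries held between 17963458 and 19444638 expected counts, and the members took between 0.334% and 0.488% of them. Expected counts are read pairs assigned to a unigene by estimation, and FPKM divides them by length and library size. Chlorophyll a-b binding proteins and the small subunit of Rubisco, which mark green tissue, summed to 9515, 8962 and 9347 FPKM in callus and to 24216, 29243 and 30106 FPKM in leaf. Of the 73 tested unigenes of that list 27 were lower and 1 was higher in callus, and the tissue labels therefore matched their markers, although callus grown in light was not free of them. Cyclins A and B and cyclin-dependent kinases B, which mark dividing cells, summed to 127, 161 and 159 FPKM in callus and to 73.8, 62.3 and 95.9 FPKM in leaf. Of their 19 tested unigenes 9 were higher in callus, and all 19 had a positive log2 fold change.

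The members as a whole stood close to the transcriptome, and the differences lay in particular genes. Of 371 members 258 had enough counts for edgeR's quasi-likelihood test, 113 did not, and 10 of those were at 0 in every library. The untested members averaged at most 3.38 FPKM over the libraries. At an adjusted p of 0.05 or less (Benjamini-Hochberg over all 66307 tested unigenes), 45 members (17.4%) were higher in callus, where 14.2% of all tested unigenes were. In the other direction 22 members (8.53%) were lower, against 12.3% of all. Without the RNA-directed DNA polymerase homologs 36 of 202 (17.8%) were higher and 17 (8.42%) lower. The median log2 fold change was 0.24 for the members and 0.33 without these homologs, beside -0.10 for all tested unigenes. Summed over members, the level was 3159, 4536 and 4705 FPKM in callus and 4507, 4483 and 3266 FPKM in leaf, and the tissues overlapped. In bulk tissue, more cells that use a gene and more RNA of it per cell cannot be told apart.

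**Figure D1:**
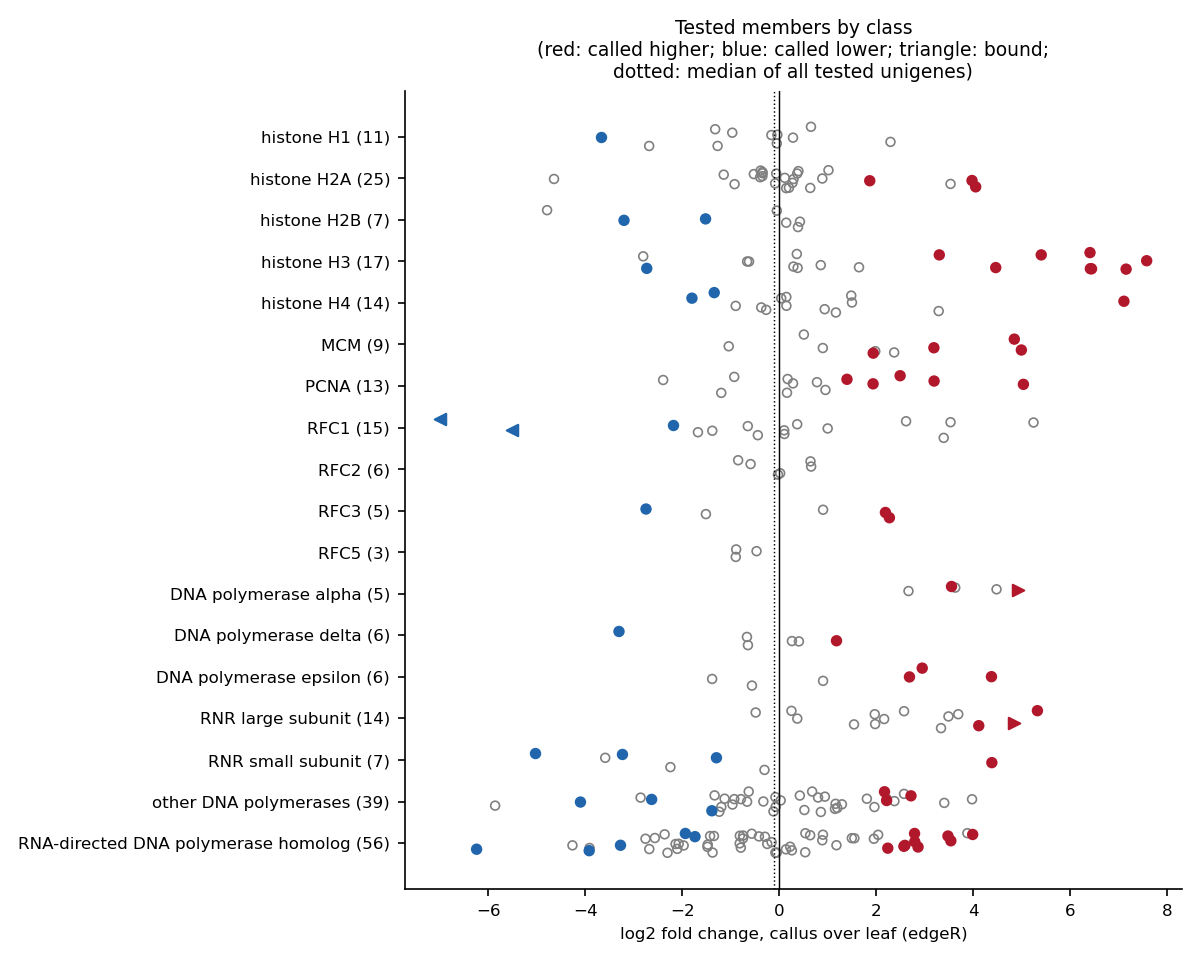
Log2 fold change of callus over leaf (edgeR, x axis) for each of the 258 tested members, in rows by class with the number tested in brackets. Filled red and blue points are the members called higher and lower, open points were not called, triangles stand at the bound for the 4 members at 0 in 1 tissue, and the dotted line is the median of all tested unigenes (-0.10). Calls to the right gather in histone H3, MCM, PCNA and DNA polymerases alpha and epsilon, and most rows hold points on both sides of 0.

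Every library of callus lay above every library of leaf for 92 of the tested members (35.7%), a pattern that 28.4% of all tested unigenes had. The opposite held for 45 members (17.4%) and for 25.5% of all tested unigenes. With 3 libraries against 3, an exact permutation test of a single gene cannot give a p below 0.1, so single genes were judged only in the fit over all unigenes. In that fit 105 members had an unadjusted p under 0.05, as did 41.7% of all tested unigenes.

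Among the histones, H3.2 stood out. Of its 12 unigenes 8 were tested, 6 were higher in callus and 0 lower in edgeR's test, and all 8 had every callus library above every leaf library. An unadjusted p under 0.05 was reached by 7, and DESeq2 called 8 higher and 0 lower at 0.05. The median log2 fold change of the tested H3.2 unigenes was 5.91, and summed over the 12 the level was 185 ± 79.8 FPKM in callus and 6.95 ± 1.1 FPKM in leaf (SD, n = 3 each), which is 26.6-fold higher. Unigene3366_All had 39.2, 53.0 and 72.6 FPKM in callus, against 0, 0.17 and 0.71 FPKM in leaf. The callus libraries lay far above all leaf libraries, and its log2 fold change was 7.58 ± 1.18 (SE; adjusted p = 0.0104). CL11924.Contig1_All had 21.6, 51.0 and 61.4 FPKM in callus and 1.07, 0.64 and 1.39 FPKM in leaf. Here too the tissues did not overlap, callus replicate 1 was the lowest of the callus libraries, and the log2 fold change was 5.40 ± 0.57 (adjusted p = 0.0055). CL13357.Contig1_All reached 16.5, 42.1 and 55.4 FPKM in callus, against 0, 0.31 and 0.92 FPKM in leaf (log2 fold change 6.44 ± 1.23, adjusted p = 0.0160). Its sister contig CL13357.Contig2_All changed by 6.42 ± 1.14 and Unigene14850_All by 7.15 ± 1.01 on the log2 scale, also with no overlap.

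H3.3 made up most of the H3 transcripts in both tissues, and its most abundant unigene did not pass the test. CL1841.Contig5_All, the most abundant of all members, had 656, 891 and 852 FPKM in callus and 729, 537 and 683 FPKM in leaf. The tissues overlapped, and the log2 fold change was 0.29 ± 0.18 (adjusted p = 0.258). Of the 14 H3.3 unigenes 8 were tested, with 2 higher and 1 lower. CL1841.Contig4_All was at 61.2, 116 and 120 FPKM in callus and at 1.82, 0.86 and 0.76 FPKM in leaf, far apart, with a log2 fold change of 6.41 ± 0.51 and the smallest adjusted p of any member (0.00416). The cluster to which both contigs belong summed to 915 ± 162 FPKM in callus and 658 ± 101 FPKM in leaf, and changed by 0.57 ± 0.19 on the log2 scale (adjusted p = 0.0499). H3.2 was 10.9%, 15.0% and 19.2% of the summed H3 FPKM in callus and 0.888%, 0.833% and 0.765% in leaf. Each callus share was above each leaf share, with a wider spread in callus (SD 4.19 percentage points) than in leaf (SD 0.0616). CL8713.Contig3_All, another H3.3, had 86.5, 81.0 and 95.1 FPKM in callus and 136, 153 and 124 FPKM in leaf, without overlap but short of the threshold (log2 fold change -0.66 ± 0.20, adjusted p = 0.0539). The only centromeric H3, named HTR12, stood at 1.18, 2.53 and 2.56 FPKM in callus and 1.49, 2.12 and 1.16 FPKM in leaf and did not pass (0.36 on the log2 scale).

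**Figure D2:**
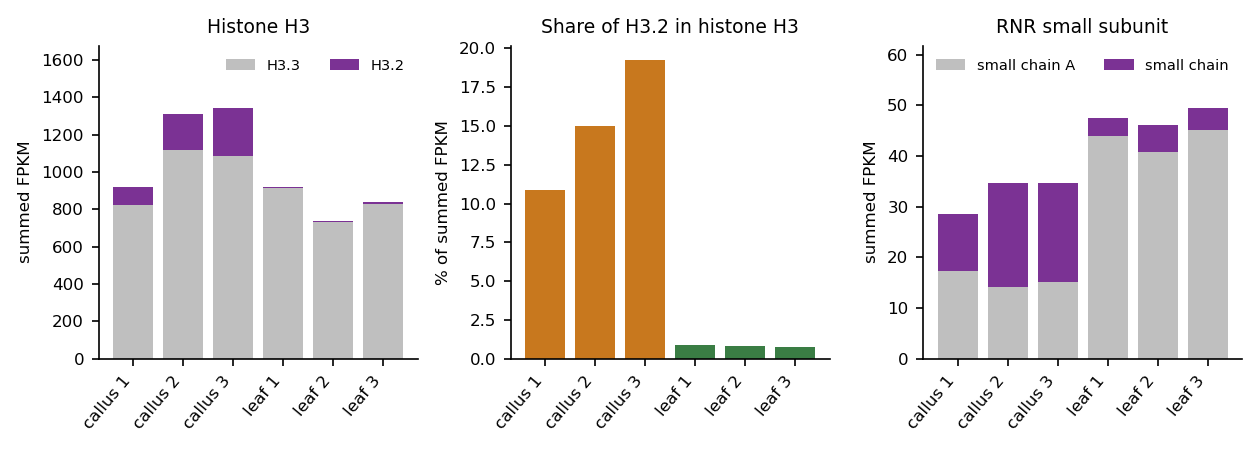
Left, FPKM summed over H3.3 (grey) and H3.2 (purple) unigenes in each library. Middle, H3.2 as a percentage of all H3 FPKM. Right, FPKM summed over RNR small chain A (grey) and the other RNR small chains (purple). H3.2 is visible in the callus bars (10.9% to 19.2%) and nearly absent from the leaf bars (under 1%), and small chain A is the larger part of each leaf bar.

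H4 had calls in both directions. Among its 14 tested unigenes 1 was higher and 2 lower. Unigene2146_All, an H4, had 11.6, 32.1 and 39.8 FPKM in callus, against 0.14, 0.41 and 0 FPKM in leaf. It was all but absent from leaf, and its log2 fold change was 7.11 ± 1.12 (adjusted p = 0.0106). In the opposite direction, H4 unigene CL5796.Contig1_All had 13.4, 23.2 and 20.9 FPKM in callus and 56.1, 46.0 and 42.2 FPKM in leaf. Each leaf library was above each callus library, and the log2 fold change was -1.34 ± 0.29 (adjusted p = 0.0219). Unigene32891_All, also an H4, fell by 1.80 ± 0.38 on the log2 scale to 5.31 ± 0.94 FPKM in callus, against 18.4 ± 3.81 FPKM in leaf (SD, n = 3 each). The most abundant H4, CL8321.Contig1_All, ranged from 19.0 to 56.7 FPKM in callus and from 23.3 to 51.4 FPKM in leaf and was not called. Over all 20 H4 unigenes the summed level was 246 ± 79.2 FPKM in callus and 247 ± 60.1 FPKM in leaf.

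H2A had 25 tested unigenes, of which 3 were higher in callus and 0 lower, 6 had an unadjusted p under 0.05, and DESeq2 called 5 higher and 2 lower at 0.05. The 3 higher in edgeR's test were 12% of those tested, beside 14.2% of all tested unigenes. Unigene1012_All, an H2A chosen after its values were seen, had 15.3, 39.3 and 49.9 FPKM in callus and 2.42, 1.96 and 1.80 FPKM in leaf. The tissues were well apart (log2 fold change 4.05 ± 0.52, adjusted p = 0.0073). H2AX, which is phosphorylated at DNA breaks, had 8 tested unigenes, of which 2 were higher. CL12890.Contig2_All, its most abundant, had 38.1, 35.8 and 51.8 FPKM in callus and 17.8, 7.16 and 9.78 FPKM in leaf (log2 fold change 1.87 ± 0.40, adjusted p = 0.0220). CL12688.Contig1_All, chosen after its values were seen, had 6.82, 18.9 and 19.3 FPKM in callus and 0.22, 1.67 and 0.85 FPKM in leaf (3.98 ± 0.88, adjusted p = 0.0241). For both, callus lay wholly above leaf. The summed H2AX level was 125 ± 21.3 FPKM in callus and 66.7 ± 1.64 FPKM in leaf. The H2A variants of H2A.Z type replace H2A at many gene starts. Of their 5 tested unigenes edgeR called 0, 0 had an unadjusted p under 0.05, and DESeq2 called 0. Their most abundant unigene, Unigene20041_All, averaged 170 ± 58.6 FPKM in callus and 129 ± 35.1 FPKM in leaf, and the next, Unigene26730_All, 48.3 ± 13.2 FPKM in callus and 39.6 ± 4.57 FPKM in leaf. The most abundant H2A, CL1817.Contig2_All, averaged 248 ± 52.9 FPKM in callus and 311 ± 77.7 FPKM in leaf and was not called.

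H2B had a lower mean sum in callus, largely through 1 unigene, but the tissues overlapped. The sums were 471, 648 and 745 FPKM in callus, against 1275, 1567 and 654 FPKM in leaf. Of 7 tested unigenes 2 were lower in callus and 0 higher in edgeR's test, 3 had an unadjusted p under 0.05, and DESeq2 called 3 lower and 0 higher, while the median log2 fold change was -0.05, with 3 positive and 4 negative. Unigene23308_All, the most abundant H2B, had 233, 344 and 388 FPKM in callus, against 994, 1287 and 443 FPKM in leaf. All callus libraries were below all leaf libraries, but callus replicate 3 came close to leaf replicate 3, and the log2 fold change was -1.52 ± 0.43 (adjusted p = 0.0474). The call held in 1 of the 6 fits that left out a library, the one without leaf replicate 3. This unigene made up 49.5%, 53.0% and 52.0% of the summed H2B FPKM in callus and 77.9%, 82.1% and 67.7% in leaf. The next H2B unigenes, Unigene33218_All and CL5459.Contig6_All, were at 98.2 and 102 FPKM on average in callus and 87.9 and 77.2 FPKM in leaf, and were not called. Linker histone H1 had 11 tested unigenes, of which 1 was lower. Its most abundant, CL7900.Contig2_All, had 279, 421 and 326 FPKM in callus and 348, 423 and 276 FPKM in leaf, overlapping (log2 fold change -0.05 ± 0.24, adjusted p = 0.892). The histones together summed to 2693, 3984 and 4083 FPKM in callus and 4110, 4074 and 2872 FPKM in leaf, also overlapping.

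**Figure D3:**
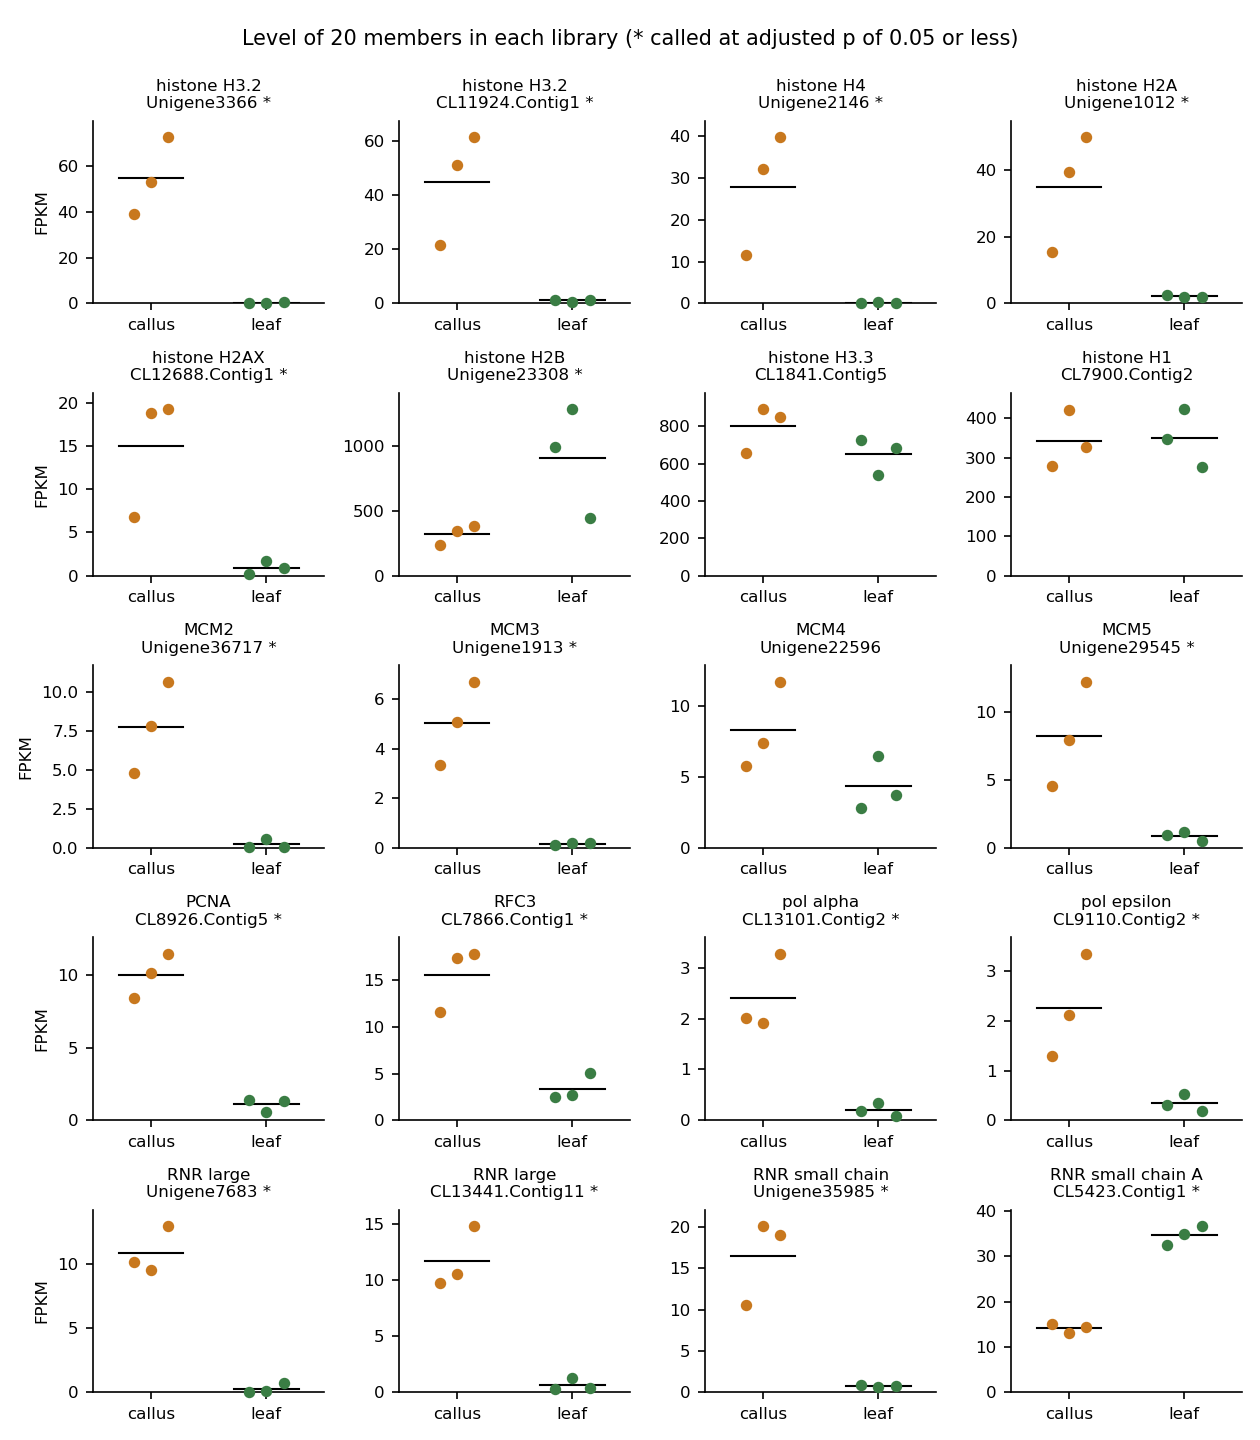
FPKM (y axis, each panel on its own scale from 0) of 20 members in the 3 callus libraries (orange, left) and 3 leaf libraries (green, right), with black bars for the means. An asterisk marks a member called in edgeR's test. The H2A, H2AX, PCNA, polymerase alpha, polymerase epsilon and RNR small chain (Unigene35985_All) panels show unigenes chosen after their values were seen. The most abundant H2A, H4, polymerase alpha and polymerase epsilon unigenes, none of them called, are not shown. The 2 H4 unigenes called lower are not shown either. Callus lies above leaf for H3.2, MCM2, MCM3 and MCM5, leaf lies above callus for the H2B and the RNR small chain A, and the H3.3, H1 and MCM4 panels overlap.

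The MCM ring rose in most of its subunits. Of 10 unigenes 9 were tested, 4 were higher in callus and 0 lower in edgeR's test, 5 had an unadjusted p under 0.05, and DESeq2 called 5 higher and 0 lower. Summed per subunit cluster, 5 of the 6 subunits were higher. MCM2 (Unigene36717_All) had 4.81, 7.78 and 10.6 FPKM in callus and 0.07, 0.59 and 0.04 FPKM in leaf. Leaf levels were close to 0 and did not overlap with callus (log2 fold change 4.99 ± 1.16, adjusted p = 0.0274). MCM3 (Unigene1913_All) had 3.34, 5.07 and 6.71 FPKM in callus and 0.12, 0.21 and 0.18 FPKM in leaf. The change of 4.85 ± 0.49 on the log2 scale (adjusted p = 0.00524) kept its call in all 6 fits that left out a library. MCM5 (Unigene29545_All) had 4.53, 7.95 and 12.2 FPKM in callus and 0.98, 1.19 and 0.48 FPKM in leaf (3.19 ± 0.56, adjusted p = 0.0131). MCM7 (CL8957.Contig1_All) had 6.84, 8.26 and 10.4 FPKM in callus and 3.43, 1.59 and 1.62 FPKM in leaf (1.94 ± 0.41, adjusted p = 0.0210). In these too callus lay wholly above leaf.

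The other MCM subunits were less clear. MCM6 (CL11406.Contig3_All) had 3.42, 6.30 and 7.70 FPKM in callus and 0.95, 2.61 and 0.72 FPKM in leaf, with no overlap but an adjusted p of 0.0654, while its whole cluster was called (log2 fold change 1.94, adjusted p = 0.0214). MCM4 (Unigene22596_All) had 5.78, 7.42 and 11.7 FPKM in callus and 2.80, 6.50 and 3.76 FPKM in leaf. Its tissues overlapped, and it was the only subunit called neither as a unigene nor as a cluster (0.90 ± 0.45, adjusted p = 0.188). In callus MCM2 and MCM4 had similar means (7.74 and 8.31 FPKM), whereas in leaf MCM4 stood at 4.35 FPKM and MCM2 at 0.233 FPKM. Over all MCM unigenes the summed level was 3.65-fold higher in callus.

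PCNA had 13 tested unigenes, of which 5 were higher in callus and 0 lower in edgeR's test, 6 had an unadjusted p under 0.05, and DESeq2 called 5 higher and 0 lower. CL8926.Contig5_All had 8.44, 10.2 and 11.5 FPKM in callus and 1.41, 0.58 and 1.32 FPKM in leaf. The callus values were close together and well above leaf (log2 fold change 3.19 ± 0.45, adjusted p = 0.00885), and it was chosen after its values were seen. CL8926.Contig4_All, the most abundant PCNA, had 9.04, 12.7 and 17.8 FPKM in callus and 6.05, 3.88 and 5.00 FPKM in leaf (1.4 ± 0.37, adjusted p = 0.0387). Unigene17491_All, chosen in the same way, had 1.94, 5.26 and 7.67 FPKM in callus and 0.19, 0.24 and 0 FPKM in leaf (5.04 ± 1.19, adjusted p = 0.0283). In both, the lowest callus library was above the highest leaf library. The summed PCNA level was 41.9 ± 9.38 FPKM in callus and 17.1 ± 4.96 FPKM in leaf.

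RFC, the clamp loader, did not move as a unit. For RFC3 2 of 5 tested unigenes were higher and 1 was lower. CL7866.Contig1_All, the most abundant RFC3, had 11.6, 17.4 and 17.9 FPKM in callus and 2.44, 2.70 and 5.04 FPKM in leaf, without overlap (log2 fold change 2.19 ± 0.40, adjusted p = 0.0148). For RFC1, the large subunit, 3 of 15 tested unigenes were lower and 0 were higher, with 6 at an unadjusted p under 0.05 and 3 higher and 4 lower in DESeq2. Of these 3, Unigene70580_All and Unigene78911_All were at 0 in every callus library. Unigene70580_All had 3.36, 2.38 and 0.95 FPKM in leaf, which is at least 127-fold lower in callus when callus is set to 3 counts over its libraries. The most abundant RFC1, Unigene36298_All, had 10.1, 9.48 and 11.9 FPKM in callus and 7.36, 0.86 and 7.68 FPKM in leaf and was not called (1.00 ± 0.74). RFC2 (6 tested) and RFC5 (3 tested) had 0 calls in edgeR and 0 at an unadjusted p under 0.05, and DESeq2 called 1 RFC5 lower. The most abundant RFC2, CL9859.Contig2_All, had 10.4, 17.0 and 17.3 FPKM in callus and 11.5, 7.81 and 9.01 FPKM in leaf, overlapping. The levels summed to 39.8 ± 5.71 FPKM in callus and 38.8 ± 7.11 FPKM in leaf for RFC2. The names need care here, because some RFC1 and RFC2 unigenes of cluster CL1170 have chromosome transmission fidelity protein 18, a relative of RFC1, as their NR match, and Unigene17330_All, named RFC2, has the ATPase WRNIP1.

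The replicative DNA polymerases had 17 tested unigenes, with 6 higher and 1 lower. DNA polymerase alpha, which starts new strands with primase, was 8.17-fold higher in callus over its 7 unigenes, 7.57 ± 1.80 FPKM in callus and 0.927 ± 0.886 FPKM in leaf. CL13101.Contig2_All, chosen after its values were seen, had 2.02, 1.92 and 3.28 FPKM in callus and 0.18, 0.33 and 0.09 FPKM in leaf (log2 fold change 3.55 ± 0.64, adjusted p = 0.0138). Unigene4122_All, at 0.49, 1.2 and 1.15 FPKM in callus, was at 0 in every leaf library, so it was at least 30.5-fold higher against 3 counts over the leaf libraries. The most abundant, CL13101.Contig5_All, had 2.18, 3.14 and 2.57 FPKM in callus and 0, 0.88 and 0.33 FPKM in leaf and was not called (adjusted p = 0.152). All 5 tested unigenes had callus above leaf.

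DNA polymerase epsilon, assigned to the leading strand in yeast, had 3 of 6 tested unigenes higher. CL9110.Contig2_All had 1.30, 2.12 and 3.35 FPKM in callus and 0.30, 0.53 and 0.18 FPKM in leaf (log2 fold change 2.69 ± 0.62, adjusted p = 0.0266) and was chosen after its values were seen. The most abundant one, CL12713.Contig11_All, averaged 3.16 ± 0.45 FPKM in callus and 4.60 ± 2.14 FPKM in leaf and was not called. DNA polymerase delta, assigned to the lagging strand in yeast, had 1 unigene higher and 1 lower of 6 tested. Its catalytic subunit CL4785.Contig2_All rose by 1.18 ± 0.29 on the log2 scale (adjusted p = 0.0312), at 3.92, 5.27 and 6.06 FPKM in callus and 2.42, 1.84 and 2.39 FPKM in leaf. Its small subunit CL41.Contig3_All fell by 3.3 ± 0.67, at 0.21, 0.18 and 0.10 FPKM in callus and 2.84, 0.99 and 1.27 FPKM in leaf. The most abundant delta unigene, CL41.Contig1_All, also a small subunit, was not called (3.3 ± 1.83 FPKM in callus and 5.12 ± 1.47 FPKM in leaf), and neither was the whole cluster CL41 (-0.71, adjusted p = 0.109).

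RNR consists of a large catalytic and a small radical-bearing subunit. The large subunit summed to 51.7, 63.2 and 73.9 FPKM in callus, against 15.5, 13.3 and 15.3 FPKM in leaf, and 3 of 14 tested unigenes were higher and 0 lower in edgeR's test. An unadjusted p under 0.05 was reached by 6, and DESeq2 called 6 higher and 0 lower. Unigene7683_All had 10.2, 9.56 and 12.98 FPKM in callus and 0, 0.08 and 0.72 FPKM in leaf (log2 fold change 5.32 ± 1.39, adjusted p = 0.0382). CL13441.Contig11_All, the most abundant, had 9.76, 10.6 and 14.8 FPKM in callus and 0.28, 1.33 and 0.36 FPKM in leaf (4.12 ± 0.74, adjusted p = 0.0137). Callus was above leaf without overlap in both.

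The small subunit changed in opposite directions by unigene. Unigene35985_All, named small chain and chosen after its values were seen, had 10.5, 20.1 and 19.0 FPKM in callus and 0.95, 0.66 and 0.73 FPKM in leaf. It was far higher in every callus library (log2 fold change 4.38 ± 0.41, adjusted p = 0.00472) and kept its call in all 6 fits that left out a library. CL5423.Contig1_All, named small chain A, had 15.1, 13.1 and 14.4 FPKM in callus and 32.5, 35.0 and 36.6 FPKM in leaf. It was lower in every callus library, with little spread in either tissue (-1.29 ± 0.21, adjusted p = 0.0114). Of the other contigs of its cluster, CL5423.Contig4_All had a log2 fold change of -3.23 ± 0.71 and CL5423.Contig6_All one of -5.02 ± 1.24, both called. The 8 contigs of this cluster together were also lower (-1.60, adjusted p = 0.00126). Small chain A unigenes were 60.2%, 40.5% and 43.8% of the summed small-subunit FPKM in callus and 92.4%, 88.5% and 91.1% in leaf.

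The other DNA polymerases serve repair, translesion synthesis and the organelles. Of 39 tested, 3 were higher and 3 lower (7.69% each), against 14.2% and 12.3% of all tested unigenes. DNA polymerase lambda, a repair enzyme, was higher in Unigene36098_All, with 1.68, 2.59 and 2.93 FPKM in callus and 0.39, 0.53 and 0.63 FPKM in leaf (log2 fold change 2.22 ± 0.48, adjusted p = 0.0231). Callus lay above leaf in all libraries. DNA polymerase eta, which copies past UV damage, was lower in CL1727.Contig4_All, with 1.08, 1.08 and 1.36 FPKM in callus and 10.5, 4.60 and 6.66 FPKM in leaf (-2.63 ± 0.40, adjusted p = 0.00992). CL1727.Contig7_All fell by 1.39 ± 0.40, but the summed cluster was not called (-0.32, adjusted p = 0.138). DNA polymerase kappa, a translesion enzyme, summed to 81.7, 82.7 and 106 FPKM in callus and 31.1, 24.1 and 37.3 FPKM in leaf. Of its 17 tested unigenes 1 was higher and 1 lower, and its most abundant, Unigene11457_All, had 25.6, 22.1 and 34.3 FPKM in callus, against 0, 0.38 and 4.80 FPKM in leaf. These groups did not overlap, but the leaf libraries were so unlike each other that the adjusted p was 0.128. The zeta processivity subunit CL4155.Contig3_All averaged 8.13 ± 1.63 FPKM in callus and 4.59 ± 2.97 FPKM in leaf, and was not called. Of the zeta catalytic subunit 1 of 4 tested unigenes was higher, but not the most abundant, CL3628.Contig4_All. CL853.Contig7_All, named only DNA polymerase, has a nucleolar complex protein as its NR match and was not called.

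All 99 RNA-directed DNA polymerase homologs were matched to a sequence of *Oenothera berteroana*. Against 14.2% and 12.3% of all tested unigenes, 9 (16.1%) were higher and 5 (8.93%) lower of the 56 tested homologs. Their summed level was 61.6, 63.2 and 56.1 FPKM in callus, against 94.9, 103 and 84.3 FPKM in leaf, with no overlap, and their median log2 fold change was -0.36. The most abundant, CL3506.Contig2_All, was at 8.16 ± 0.48 FPKM in callus and 6.98 ± 2.40 FPKM in leaf and was not called. Its NR match is an inositol dehydrogenase, whereas several others have a Gag-Pol polyprotein of a Ty3 transposon there.

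Other replication genes from a separate list held 282 unigenes, of which 178 were tested, 35 (19.7%) were higher and 10 (5.62%) lower in callus, with a median log2 fold change of 0.42. Shares over all unigenes were 14.2% and 12.3%, as above. Of DNA topoisomerase 2, which untangles replicated DNA, 1 of 4 tested unigenes was higher, and CL3059.Contig7_All, chosen after its values were seen, had a negative log2 fold change that was not called (-3.55, adjusted p = 0.159). The one called, CL12669.Contig2_All, had 2.77, 8.73 and 8.95 FPKM in callus and 0.05, 0.04 and 0.06 FPKM in leaf (log2 fold change 6.99 ± 0.65, adjusted p = 0.00467). Deoxyuridine triphosphatase, which keeps uracil out of DNA, was higher in 3 of 3 tested unigenes, and CL12485.Contig2_All had 7.89, 14.0 and 18.9 FPKM in callus and 0.47, 0.54 and 0.91 FPKM in leaf (4.35 ± 0.54, adjusted p = 0.0070). The large primase subunit Unigene27196_All, partner of polymerase alpha, had 3.17, 5.16 and 6.42 FPKM in callus and 0.27, 0.34 and 0.62 FPKM in leaf (3.55 ± 0.56, adjusted p = 0.0105). In all 3 genes callus lay wholly above leaf. CDC6, which loads the MCM ring, was at 0.84, 1.34 and 2.23 FPKM in callus and 0, 0.07 and 0 FPKM in leaf (Unigene30610_All, 5.53 ± 1.03, adjusted p = 0.0151).

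Among single-strand binding proteins (replication protein A) 8 of 23 tested unigenes were higher and 0 lower in edgeR's test, with 12 at an unadjusted p under 0.05 and 13 higher and 1 lower in DESeq2. The most abundant, CL2526.Contig6_All, averaged 30.5 ± 3.14 FPKM in callus and 20.4 ± 1.68 FPKM in leaf and was not called (adjusted p = 0.0789), while CL9101.Contig3_All, chosen after its values were seen, had 4.42, 8.93 and 9.23 FPKM in callus and 0 in every leaf library. CL9101.Contig3_All was at least 240-fold higher against 3 counts over the leaf libraries. Contigs 10, 12, 14 and 17 of the same cluster were also called higher and at 0 in leaf, so these calls are not of separate clusters. Of 13 tested clusters holding a replication protein A unigene, 4 were higher and 1 lower when counts were summed. For the origin recognition complex 4 of 20 tested unigenes were higher and 0 lower, with 6 at an unadjusted p under 0.05 and 6 higher and 0 lower in DESeq2. Flap endonuclease 1 (4 higher and 3 lower of 17) and nucleosome assembly protein 1 (3 and 3 of 28) had calls both ways. FACT, which moves histones aside for the polymerases, had 1 higher and 1 lower of 16, both named SPT16. Unigene17263_All rose by 0.68 ± 0.18 on the log2 scale, at 22.8 ± 2.83 FPKM in callus and 14.0 ± 1.33 FPKM in leaf. Unigene29376_All, chosen after its values were seen, was lower, at 3.22 ± 1.30 FPKM in callus and 12.5 ± 3.43 FPKM in leaf (-1.99 ± 0.41, adjusted p = 0.0197). Chromatin assembly factor 1, which places new H3 and H4 on copied DNA, had 3 of 7 tested unigenes higher and 0 lower in edgeR's test, with 3 at an unadjusted p under 0.05 and 3 higher and 2 lower in DESeq2. Its FAS2 subunit CL12320.Contig2_All, chosen in the same way, had 5.75, 10.5 and 11.6 FPKM in callus and 0.87, 0.63 and 0.78 FPKM in leaf (3.58 ± 0.42, adjusted p = 0.00625). Thymidylate synthase had 2 of 7 tested unigenes higher, and thymidylate kinase 2 of 11. Summed per cluster, 30 of 100 tested were higher and 15 lower, against 22.0% and 20.8% of all clusters. The higher ones included thymidylate synthase CL1455 (1.55, adjusted p = 0.00520) and CL4620 (1.67, adjusted p = 0.0166). CL4620 has 6 contigs, and its sum includes some not named CDT1. The ones named CDT1, CL4620.Contig3_All and CL4620.Contig5_All, were not called (log2 fold changes 0.37 and 1.99). GINS subunit Unigene33610_All, a single unigene with nothing to sum, was also higher in that fit (3.23, adjusted p = 0.0384). The lower ones included retinoblastoma-related protein CL10704 (-0.82, adjusted p = 0.0354) and DNA ligase 1 CL3562 (-0.58, adjusted p = 0.0497). Also lower were CL12749 (-1.48, adjusted p = 0.00127) and CL3059 (-1.43, adjusted p = 0.00408), but their sums include contigs without a name of the list. Of the 7 contigs of CL12749, none of those named FACT was called. Of the 59 contigs of CL3059, CL3059.Contig7_All was the only tested one named topoisomerase 2, and it was not called. As single unigenes, the most abundant of the following were not called, namely those of the histone chaperone ASF1 (Unigene9181_All), retinoblastoma-related protein (CL10704.Contig1_All), thymidine kinase (Unigene10833_All), thymidylate kinase (Unigene30339_All), thymidylate synthase (CL1455.Contig1_All), the origin recognition complex (CL13602.Contig1_All), nucleosome assembly protein 1 (CL2282.Contig1_All), E2F (CL6915.Contig2_All), CDT1 (CL4620.Contig3_All), DNA ligase 1 (CL3562.Contig10_All), chromatin assembly factor 1 (CL7805.Contig1_All), topoisomerase 1 (CL9347.Contig5_All), ribonuclease H2 (CL6613.Contig3_All), GINS (Unigene33610_All) and flap endonuclease 1 (Unigene12537_All).

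Contigs of 1 assembly cluster can be alleles, splice forms or paralogs, and reads that fit several were shared among them before deposition. The 371 members fell into 229 clusters and single unigenes, 215 of them being contigs of 73 clusters. Of 156 tested contigs with a tested cluster, 37 had the opposite sign to their cluster's sum. Of 38 called contigs 29 had a cluster called in the same direction, and 4 had one of the opposite sign. When counts were summed per cluster, 44 of 168 clusters holding a member were higher (26.2%) and 20 lower (11.9%), against 22.0% and 20.8% of all clusters tested.

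**Figure D4:**
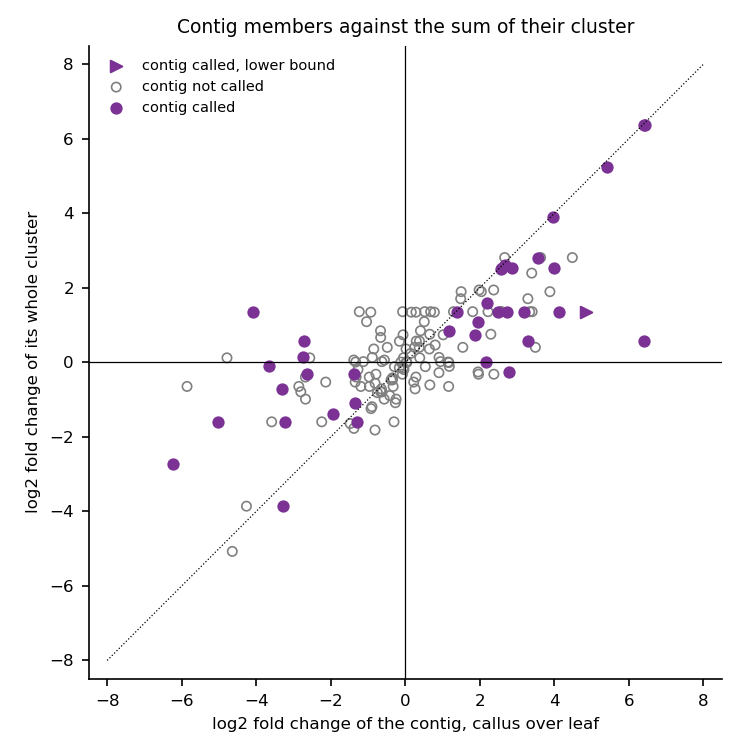
Log2 fold change of callus over leaf for each of the 156 tested contigs (x axis) against that of the summed counts of its whole cluster (y axis). Filled points are called contigs, the triangle is a contig at 0 in leaf drawn at its bound, and the dotted line marks equal values. Points in the upper left and lower right quadrants are the 37 contigs whose cluster has the opposite sign.

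Cluster CL13441 mixes names and signs. It holds 21 contigs, 12 of them members named DNA polymerase kappa and 5 named RNR large subunit. CL13441.Contig7_All, a kappa contig, had 0.33, 0.40 and 0.19 FPKM in callus and 5.57, 3.62 and 6.67 FPKM in leaf (log2 fold change -4.10 ± 0.45, adjusted p = 0.00578). The whole cluster went the other way, at 70.1, 75.4 and 99.6 FPKM in callus and 18.2, 16.6 and 29.8 FPKM in leaf (1.36 ± 0.23, adjusted p = 0.00571). Its members named RNR large subunit summed to 19.7, 22.1 and 27.6 FPKM in callus and 0.31, 2.12 and 4.30 FPKM in leaf.

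Organellar DNA polymerase I B, all in cluster CL8947, was lower in callus only as a sum. No contig of 6 was called by edgeR, 1 had an unadjusted p under 0.05 and DESeq2 called 1 lower. CL8947.Contig1_All had 11.3, 13.4 and 14.2 FPKM in callus and 17.7, 0 and 0 FPKM in leaf. CL8947.Contig2_All had 4.98, 4.58 and 6.20 FPKM in callus and 0, 24.5 and 10.5 FPKM in leaf, and CL8947.Contig5_All was at most 0.40 FPKM in callus but 9.27, 0 and 18.5 FPKM in leaf. Each leaf library thus had its own mixture, with Contig2 shared by leaf replicates 2 and 3 and Contig5 by replicates 1 and 3, whereas the callus libraries held the contigs in similar proportion. The sum varied little within a tissue, at 19.5, 21.8 and 24.5 FPKM in callus and 29.3, 33.7 and 33.7 FPKM in leaf (log2 fold change -0.65 ± 0.13, adjusted p = 0.0106). Over all members 10 were above 5 FPKM in 1 leaf library and at 0 in another, and 0 were so in callus.

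**Figure D5:**
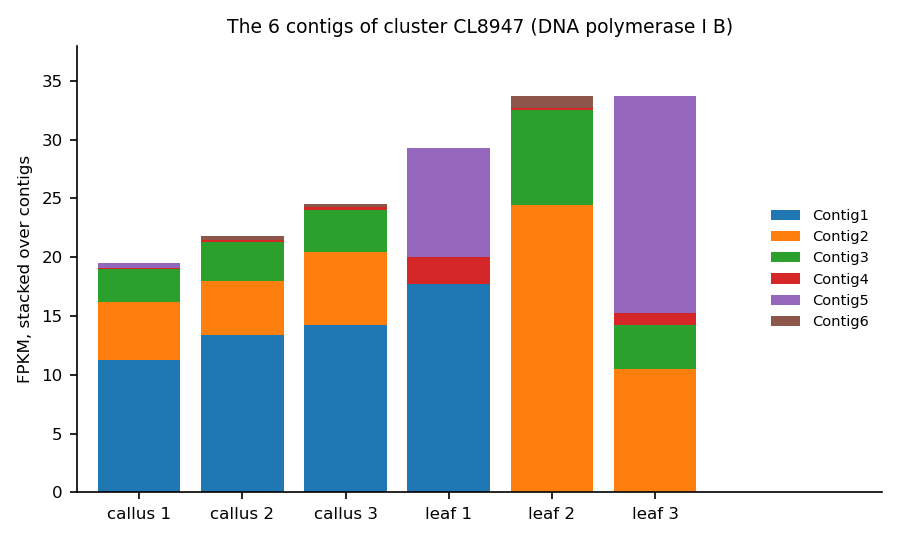
FPKM of the 6 contigs of cluster CL8947, stacked, in each library. The height is the cluster's sum, 19.5 to 24.5 FPKM in callus and 29.3 to 33.7 FPKM in leaf, and the colours show that the contigs make up different proportions of each leaf library, some being at 0 in 1 leaf library and high in another.

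The number of calls depended on which library was left out. Of the 45 members higher in callus, replicate 1 was the lowest callus library in 36 and replicate 3 the highest in 34, and the cyclin sum was also lowest in callus replicate 1. Its part in the result was not tested. Without callus replicate 3, 4 members were higher (1.43% of 280) and 1 lower (0.357%), against 0.899% and 0.611% of all unigenes. Without callus replicate 2, 5 were higher (1.78%) and 3 lower (1.07%), against 2.35% and 1.64%. Without callus replicate 1, 25 were higher (8.83%) and 12 lower (4.24%), against 6.79% and 5.46%. Leaving out a leaf library gave 49, 40 and 45 higher (without leaf replicates 1, 2 and 3), where 14.0%, 12.2% and 14.3% of all unigenes were higher. The lower members numbered 28, 17 and 21 in these fits, where 11.9%, 8.91% and 11.2% of all were lower. All 67 called members kept their sign in all 6 fits. Calls in all 6 were kept by 4 higher members, namely MCM3 Unigene1913_All, RNR small chain Unigene35985_All, H3.2 CL11924.Contig1_All and H3.3 CL1841.Contig4_All, and by 1 lower member, CL13441.Contig7_All.

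The number of calls also depended on the tool and the threshold. With the thresholds of the study's methods, an adjusted p of 0.001 and a 2-fold change, edgeR called 0 members in either direction and 0 of all unigenes, where the smallest adjusted p was 0.00416 among members and 0.00218 among all. DESeq2 at those thresholds called 42 of 293 members higher (14.3%) and 15 lower (5.12%), against 9.48% and 6.99% of all unigenes with a value. At 0.05, DESeq2 called 71 of 321 members higher (22.1%) and 42 lower (13.1%), against 15.6% and 16.0% of all. The limma fit called 54 of 320 higher and 29 lower on log2(FPKM + 0.01), where 12.8% and 11.7% of all were called, and 71 and 23 on log2(FPKM + 1), where 14.1% and 10.6% were. Without a filter on low counts edgeR called 30 of 361 higher (8.31%) and 8 lower (2.22%), against 4.46% and 2.7% of all.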

How the data were processed

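Poly(A)-selected RNA of 3 callus and 3 leaf libraries was sequenced on BGISEQ-500. The authors filtered the reads, assembled them with Trinity, clustered contigs with TGICL, aligned with Bowtie2 2.2.5 and estimated expression with RSEM 1.2.8. The deposited expected counts (estimated counts, not whole) are not normalized, and the deposited FPKM is scaled by length and depth by the authors. The authors' table also holds their own fold changes, p-values and q-values, which were not used. Replicate numbers follow accession order and only name libraries.

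Expected counts were rounded and tested with edgeR 4.0.16 (TMM, filterByExpr, quasi-likelihood, Benjamini-Hochberg over all unigenes, R 4.3.3), with a call at an adjusted p of 0.05. Errors of log2 fold changes are SE. The thresholds of the methods (0.001 and 2-fold), DESeq2 1.42.0, limma 3.58.1 (pseudocounts 0.01 and 1, FPKM above 0 in at least 3 libraries), other scaling, no filter, robust and non-legacy settings, sums per cluster and each library left out were alternatives. The script was tested on simulated data. Bounds against a tissue at 0 use 3 counts over its libraries.

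Named genes were the most abundant tested member of each class and of H3.3, centromeric H3, H2AX and H2A variants, the 10 largest rises and falls among called members whose mean reached 5 FPKM or more in callus or leaf (only 8 falls qualified), and the most abundant unigene of each protein of the list of other replication genes. Further unigenes were named after their values were seen. Members and lists were chosen with earlier results of these data known. Other tools were Python 3.11.15, pandas 2.3.3, numpy 2.4.6 and matplotlib 3.10.9.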

Additional observations from a re-analysis of the deposited data

How the results depend on the processing

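With 3 libraries a tissue and 17963458 to 19444638 counts each, 113 members had too few counts for a test. No paired analysis was possible because the labels give no replicate numbers. Members higher in callus numbered 45 in edgeR's test, 71 in DESeq2, 71 when limma was run on log2(FPKM + 1) and, at the thresholds of the methods, 0 in edgeR and 42 in DESeq2. Members lower numbered 22, 42 in DESeq2, 8 without a filter and, at those thresholds, 0 in edgeR and 15 in DESeq2. Other replication genes higher numbered 35 of 178 (19.7%), beside 14.2% of all unigenes, and 57 of 240 in DESeq2 (23.8%), beside 15.6%. At those thresholds they numbered 0 in edgeR, as for all unigenes, and 29 of 216 in DESeq2 (13.4%), beside 9.48%. Lower ones numbered 10 (5.62%), 21 in DESeq2 (8.75%), 16 of 226 in limma on log2(FPKM + 0.01) (7.08%) and 5 of 273 without a filter (1.83%). In these settings 12.3%, 16.0%, 11.7% and 2.7% of all unigenes were lower. At the thresholds of the methods, 0 were lower in edgeR and 9 in DESeq2 (4.17%), beside 0 and 6.99% of all unigenes. Leaving out a library gave 4 to 49 members higher and 1 to 28 lower, and 3 to 34 other replication genes higher and 0 to 19 lower, lowest without callus replicate 3 in all these cases. Of the other replication genes, 3 of 203 (1.48%) were then higher and 0 lower, against 0.899% and 0.611% of all unigenes. Without leaf replicate 1, 34 of 200 (17.0%) were higher and 19 (9.5%) lower, against 14.0% and 11.9%. After the data were seen, members were recounted without the RNA-directed DNA polymerase homologs (36 and 17) and without clusters CL13441 and CL1170 (42 and 21). DESeq2's size factors shifted the median of all unigenes by 0.028 on the log2 scale.

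Summing counts per cluster turned the sign of 9 named contigs, to 0.060 for CL12713.Contig11_All, 1.36 for CL13441.Contig7_All, -0.53 for CL3506.Contig2_All, -0.58 for CL3562.Contig10_All, 0.0070 for CL3628.Contig4_All, -0.15 for CL6915.Contig2_All, -0.0068 for CL8321.Contig1_All, 0.67 for CL853.Contig7_All and -0.65 for CL8947.Contig1_All. Without a filter and in DESeq2 the log2 fold change of CL7900.Contig2_All was 0.068 and 0.043, and in limma the log2 fold change of CL8321.Contig1_All was -0.015 and -0.012. With a library left out, the log2 fold change of CL7900.Contig2_All ranged between -0.18 and 0.16, the log2 fold change of CL8321.Contig1_All between -0.21 and 0.42, the log2 fold change of CL3506.Contig2_All between -0.0064 and 0.42, and the log2 fold change of Unigene10833_All between -0.00035 and 0.33. The cause was not tested. Among the unigenes named by the rule, calls were lost for 10 without a filter, 12 without callus replicate 1, 24 without callus replicate 2, 25 without callus replicate 3 and 2 to 5 without a leaf library.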
